A study of Mus musculus with 6 samples.

Results

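Mitochondrial fusion, fission and mitophagy were followed here through 9 mouse genes named for these processes: Mfn1, Mfn2, Opa1 and Oma1 for fusion, Dnm1l, Fis1 and Mff for fission, and Pink1 and Fundc1 for mitophagy. They were chosen by name and matched by gene symbol among the 50763 genes of the deposited count table. All 9 had enough reads to be tested, among 16730 genes tested in all. The RNA came from mouse embryonic fibroblasts, cells grown from embryos at day E13.5, on a C57BL/6J background. There were 3 libraries from Sod2 K68R knock-in embryos and 3 libraries from wild-type (WT) embryos. SOD2 is the superoxide dismutase of the mitochondrial matrix, and the CRISPR-made K68R allele puts arginine, which cannot be acetylated, in place of a lysine that can. The study's title concerns dilated cardiomyopathy in these mice. The fibroblasts were cultured briefly, so the values describe cultured embryonic cells and not heart muscle. The labels call the libraries biological replicates and give no embryo or litter, so p-values measure the spread between these libraries, which may be technical.

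Mitochondria form a network that fuses and divides. MFN1 and MFN2, GTPases of the outer membrane, join the outer membranes of neighbouring mitochondria, and OPA1, a GTPase of the inner membrane, joins the inner ones and shapes the cristae. OMA1 is a stress-activated protease that cuts OPA1 and so limits inner membrane fusion. Division is carried out by DRP1, the dynamin encoded by Dnm1l, which adaptors such as MFF and FIS1 on the outer membrane recruit or help to regulate. Damaged mitochondria that have split off can be taken up by autophagy, either through the kinase PINK1 and the ubiquitin marks that follow it or through receptors such as FUNDC1 that bind the LC3 proteins of the autophagosome.

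Library totals were 26200088 to 31738219 counted read pairs in K68R fibroblasts and 30856781 to 40691447 in WT fibroblasts. Levels are given as CPM, counts scaled to TMM-normalized library sizes, as mean ± SD of 3 libraries. Sod2 itself had 47.2 ± 1.62 CPM in K68R fibroblasts and 69.96 ± 1.58 CPM in WT fibroblasts, and counts over whole exons do not tell the knock-in codon from the WT one. All 10 fibroblast markers passed the filter on low counts, 5 of them higher and 4 lower in K68R, with summed levels of 17966 to 18018 CPM in K68R libraries and 7551 to 7662 CPM in WT libraries. Markers of other cell types moved with genotype as well. The 8 skeletal muscle markers that were tested, of 10 listed, were all higher and summed to 253 to 254 CPM in K68R libraries and 82.9 to 85.5 CPM in WT libraries, with Myf6 and Ckm at 3 counts or fewer in every library. The 3 tested chondrocyte markers were higher, and the list summed to 158 to 165 CPM in K68R libraries and 9.82 to 10.6 CPM in WT libraries. The 4 tested adipocyte markers were lower, and the list summed to 3.76 to 4.86 CPM in K68R libraries and 69.5 to 77.4 CPM in WT libraries. Both the female transcript Xist and the Y-linked Ddx3y were present in every library, with Xist between 173 and 178 CPM in K68R libraries and between 134 and 139 CPM in WT libraries, and Ddx3y between 47.8 and 54.4 CPM in K68R libraries and between 74.9 and 78.7 CPM in WT libraries. The cardiomyocyte list summed to 26.9 to 29.9 CPM in K68R libraries and 12.4 to 14.2 CPM in WT libraries. Of its 5 tested markers 4 were higher and 0 lower. The endothelial list summed to 96.2 to 97.9 CPM in K68R and 25.0 to 27.4 CPM in WT libraries, with 2 of 5 tested markers higher and 0 lower. The neural list summed to 67.0 to 68.7 CPM in K68R and 35.4 to 36.2 CPM in WT libraries, but its 5 tested markers split, with 3 higher and 2 lower. All 5 epithelial markers were lower, with sums of 8.65 to 10.2 CPM in K68R libraries and 30.03 to 30.5 CPM in WT libraries. The macrophage list summed to 142 to 147 CPM in K68R libraries and 152 to 155 CPM in WT libraries. Of its 8 tested markers 2 were higher and 3 lower. The erythroid and hepatic lists stayed under 2 CPM. The part of this cell and sex makeup in the results on the 9 genes was not tested. In bulk RNA, fewer cells of a type and less RNA per cell cannot be told apart.

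K68R fibroblasts had more Mfn2 and Pink1 RNA and less Opa1, Oma1, Dnm1l, Fis1, Mff and Fundc1 RNA than WT fibroblasts, and Mfn1 did not pass the test. The changes were modest, with fold differences of 1.04 to 1.64. By edgeR's quasi-likelihood test with Benjamini-Hochberg adjustment over all genes, 8 of the 9 genes were called at an adjusted p under 0.05, beside 81.4% of all tested genes. Of the 9, 2 were higher beside 40.8% of all tested genes, and 6 were lower beside 40.5%. A call is therefore the usual outcome for a gene in this comparison. The median log2 fold change, K68R over WT, was −0.33 for the 9 genes and −0.01 for all tested genes, and the median size without regard to sign was 0.37 for the 9 genes and 0.61 for all. Tested against a fold change of 1.5 rather than against none, 1 of the 9 genes was called, Pink1 (edgeR glmTreat, adjusted p = 0.0167), beside 41.0% of all tested genes, 26.1% higher and 14.9% lower. The K68R and WT libraries did not overlap in CPM for 8 of the 9 genes, beside 82.3% of all tested genes.

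**Figure D1:**
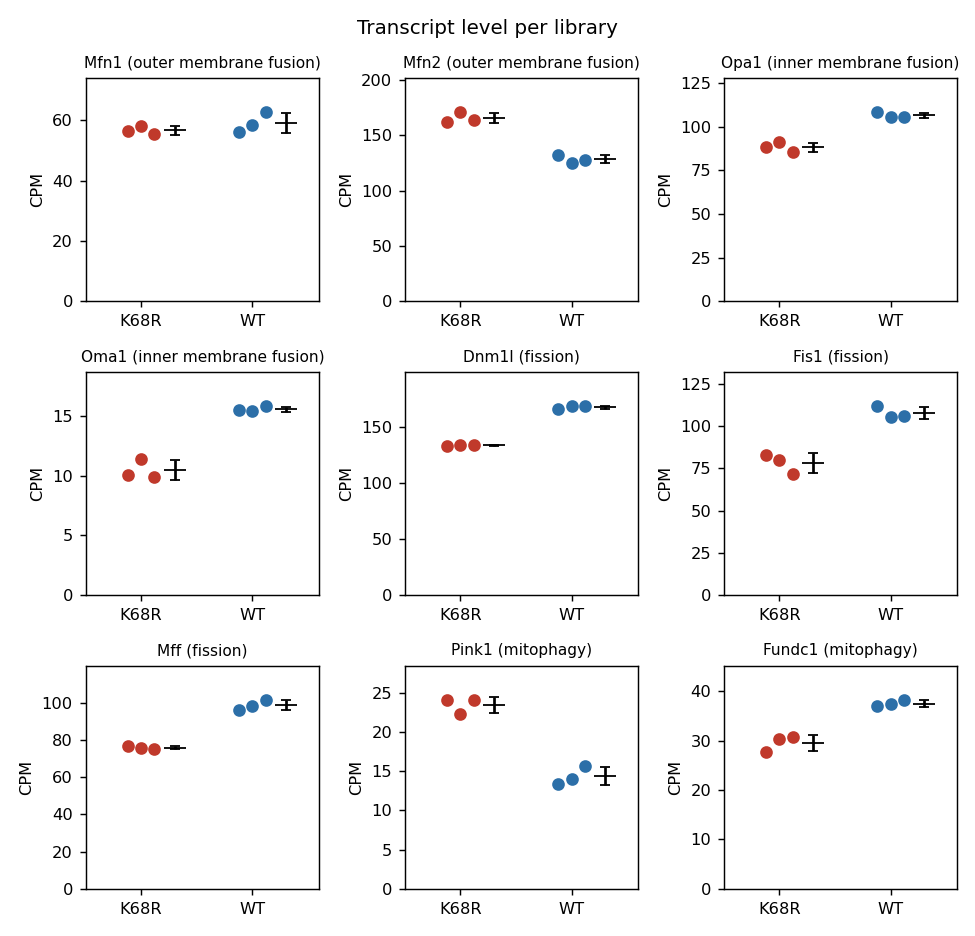
Level of each of the 9 genes in CPM (vertical axis, linear, from 0) in each library, with K68R libraries left of WT libraries. Points are libraries, and the bar and whiskers are the mean and SD of 3. Mfn2 and Pink1 sit higher in K68R, Mfn1 overlaps between genotypes, and the other 6 genes sit lower in K68R.

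Fold changes in these libraries also moved with transcript length and base composition. Genes with under 2000 exonic bases had a median log2 fold change of −0.43, and genes with 8000 or more had 0.63. Genes whose transcripts held under 45% GC had a median of −0.32, and genes with 55% or more had 0.77. Length and GC content together accounted for 39.3% of the variance of the fold changes over the 15686 tested genes with a GC value. Long GC-rich genes (4000 exonic bases or more, 55% GC or more) took 8.69% to 8.78% of the counts in K68R libraries and 2.497% to 2.507% in WT libraries. Each of the 9 genes is therefore described by its value as measured and also by its value relative to genes of like length and GC content, fitted with smooth offsets per library. Offsets were computed in 3 versions. Version 1 used the exon length of the gene with the GC content of all its transcripts, version 2 the exon length with the GC content of the longest coding transcript, and version 3 the length and GC content of that transcript. Versions 2 and 3 were added after the data had been seen. With version 1, 5 of the 9 genes were called, 2 higher and 3 lower, beside 76.1% of all genes with a GC value, 33.7% higher and 42.4% lower. With version 2, 4 were called, 1 higher and 3 lower, beside 75.9%, 33.6% higher and 42.3% lower. With version 3, 4 were called, 0 higher and 4 lower, beside 75.6%, 32.9% higher and 42.7% lower. Of all genes, 1579 called in both version 1 and the fit without offsets had opposite signs in them.

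**Figure D2:**
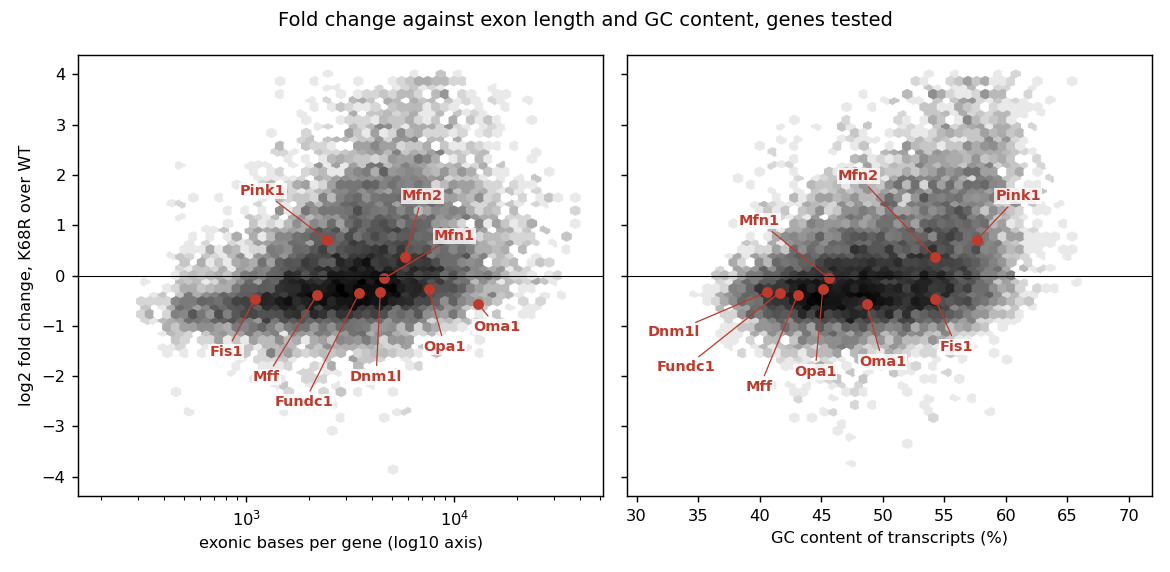
Log2 fold change, K68R over WT (vertical axis), of tested genes against exonic bases per gene (left, log10 axis) and GC content of transcripts in percent (right). Genes with the most extreme fold changes, lengths (left) or GC contents (right) are not drawn, nor on the right those without a GC value. Grey hexagons are darker where more genes lie, and labelled red points are the 9 genes. Long and GC-rich genes lie higher, Pink1 at 57.6% GC lies highest of the 9, and Dnm1l, Fundc1 and Mff lie below 0 at 40.6% to 43.1% GC.

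The mitofusins of the outer membrane differed in how they responded. Mfn2 lies on the minus strand of chromosome 4 (mm39, 147958043 to 147989527) and has 5778 exonic bases. It had 163, 171 and 164 CPM in the K68R libraries, against 132, 125 and 128 CPM in the WT libraries. All K68R libraries lay above all WT libraries, and Mfn2 rose 1.29-fold (log2 fold change 0.37, SE 0.0259, edgeR adjusted p = 5.63e-21). Relative to genes of like length and GC content the sign turned: the log2 fold change was −0.77, −0.50 and −0.39 in the 3 versions of the offsets, each called lower (edgeR adjusted p of 3.36e-22 or less). Mfn1 lies on the plus strand of chromosome 3 (32583594 to 32633384) and has 4592 exonic bases. It had 56.4, 58.2 and 55.4 CPM in the K68R libraries, against 56.03, 58.5 and 62.6 CPM in the WT libraries. The genotypes overlapped, and the log2 fold change of −0.06 (95% interval −0.13 to 0.02) did not pass the test (edgeR adjusted p = 0.16). Without WT replicate 1 the Mfn1 value was −0.11 and passed (edgeR adjusted p = 0.0176). With the offsets Mfn1 was at 0.15, 0.14 and 0.02, called higher in versions 1 and 2. Of the exonic bases of Mfn1, 14.1% are shared with the opposite strand of Gnb4, a G protein subunit gene with 42.1 ± 0.487 CPM in K68R fibroblasts and 62.3 ± 0.378 CPM in WT fibroblasts. The counts were made without strand, so reads there cannot be assigned to either gene.

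Set against each other per kilobase of exon within a library, Mfn2 stood at 2.29, 2.33 and 2.35 times Mfn1 in K68R libraries, against 1.88, 1.70 and 1.62 times in WT libraries. The ratio was higher in every K68R library than in any WT library, by 0.42 on the log2 scale. The two-sided exact permutation test gave p = 0.1, the smallest that 20 assignments of 3 against 3 libraries allow. With version 1 of the offsets the log2 ratio differed by −0.92 (exact permutation p = 0.1).

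Opa1 and Oma1, the inner membrane fusion GTPase and the protease that cuts it, were both lower in K68R fibroblasts. Opa1 lies on the plus strand of chromosome 16 (29398099 to 29481924) and has 7520 exonic bases. It had 88.2, 91.0 and 85.6 CPM in the K68R libraries, against 108, 106 and 105 CPM in the WT libraries. The genotypes did not overlap, and Opa1 fell 1.21-fold (log2 fold change −0.27, SE 0.0297, edgeR adjusted p = 6.36e-13). With the offsets it was at −0.32, −0.25 and −0.26, each called (edgeR adjusted p of 1.28e-11 or less). With offsets for exon length alone it was at −1.01. Oma1 lies on the plus strand of chromosome 4 (103170991 to 103229066). It had 10.1, 11.4 and 9.92 CPM in the K68R libraries, the lowest of the 9 there, against 15.5, 15.4 and 15.8 CPM in the WT libraries. In WT fibroblasts Pink1 had the lowest mean, at 14.4 CPM beside 15.6 CPM for Oma1. The Oma1 values rest on 261 to 357 counts in K68R libraries and 482 to 640 counts in WT libraries. Every K68R library lay below every WT library, and Oma1 fell 1.48-fold (log2 fold change −0.57, SE 0.0729, edgeR adjusted p = 1.32e-10). The direction held in all 3 versions of the offsets, but the size did not: the log2 fold change was −1.35 and −1.32 with the 13013 exonic bases of the gene, and −0.22 with the 1915 bases of its longest coding transcript (edgeR adjusted p = 0.00640). Opa1 and Oma1 were the only genes of the 9 called in the same direction in all 4 fits, as were 50.8% of the 15686 genes with a GC value.

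Per kilobase of exon, Opa1 stood at 15.1, 13.8 and 14.9 times Oma1 in K68R libraries, against 12.1, 11.9 and 11.5 times in WT libraries. The ratio was higher in every K68R library, by 0.30 on the log2 scale (two-sided exact permutation test, p = 0.1, the smallest possible). With version 1 of the offsets the difference was 1.04, with the same p. With version 3 the log2 fold change was −0.26 for Opa1 and −0.22 for Oma1, so the higher ratio in K68R was absent there. The ratio was not tested in versions 2 and 3. The Oma1 fold change itself depends on the exon length used, as given above.

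**Figure D3:**
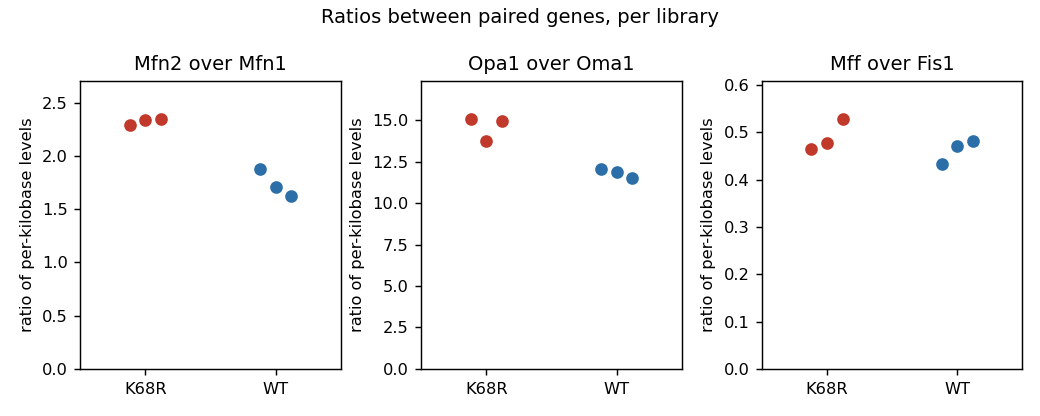
Ratios of the per-kilobase levels of Mfn2 over Mfn1, Opa1 over Oma1 and Mff over Fis1 in each library (vertical axes, ratio), with K68R left of WT. Points are libraries. The first and second ratios are higher in all K68R libraries, and the Mff over Fis1 ratio overlaps between genotypes.

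All 3 fission genes fell. Dnm1l, which encodes DRP1, lies on the minus strand of chromosome 16 (16130092 to 16176863). It had 133, 134 and 134 CPM in the K68R libraries, against 167, 169 and 169 CPM in the WT libraries. The SD was 0.722 CPM in K68R and 1.27 CPM in WT, the genotypes did not overlap, and Dnm1l fell 1.26-fold (log2 fold change −0.33, SE 0.0245, edgeR adjusted p = 7.52e-20). Mff, the outer membrane adaptor of DRP1, lies on the plus strand of chromosome 1 (82702599 to 82730111). It had 76.9, 75.6 and 75.1 CPM in the K68R libraries, against 96.2, 98.2 and 101.4 CPM in the WT libraries. It too was lower in every K68R library and fell 1.30-fold (log2 fold change −0.38, SE 0.0309, edgeR adjusted p = 4.34e-18). Of its exonic bases, 9.46% are shared with the opposite strand of C430014B12Rik, which had at most 7 counts in any library. Fis1 lies on the plus strand of chromosome 5 (136982129 to 136995088) and, with 1102 exonic bases, is the shortest of the 9. It had 83.2, 80.0 and 71.5 CPM in the K68R libraries, against 112, 105 and 106 CPM in the WT libraries. K68R replicate 3 was the lowest, the genotypes did not overlap, and Fis1 fell 1.38-fold (log2 fold change −0.47, SE 0.0419, edgeR adjusted p = 3.24e-09).

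Relative to genes of like length and GC content, none of the 3 fission genes was called in any version of the offsets. Dnm1l was at 0.021, 0.0052 and −0.042, Mff at 0.032, 0.015 and −0.022, and Fis1 at 0.0061, 0.032 and −0.085 on the log2 scale. Their smallest edgeR adjusted p among these fits was 0.0761, for Fis1 in version 3. The 95% intervals of Fis1 in version 3 reached from −0.17 to 0.00, and those of Dnm1l and Mff from −0.09 to 0.01 and from −0.08 to 0.04. The ratio of Mff to Fis1 per kilobase was 0.465, 0.476 and 0.529 in K68R libraries, against 0.433, 0.470 and 0.482 in WT libraries. These overlapped and differed by 0.08 on the log2 scale (two-sided exact permutation test, p = 0.5).

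Pink1 and Fundc1, which mark different routes into mitophagy, differed in opposite directions. Pink1, the kinase that builds up on depolarised mitochondria and phosphorylates ubiquitin there, lies on the minus strand of chromosome 4 (138040718 to 138053631). It had 24.1, 22.2 and 24.1 CPM in the K68R libraries, against 13.4, 14.0 and 15.6 CPM in the WT libraries. The genotypes lay well apart, and Pink1 rose 1.64-fold (log2 fold change 0.71, 95% interval 0.59 to 0.84, edgeR adjusted p = 1.67e-16), the largest change among the 9. Pink1 was also the most GC-rich of the 9 at 57.6%. With the offsets its log2 fold change was 0.18 (edgeR adjusted p = 0.00759), 0.04 (adjusted p = 0.531) and −0.14 (adjusted p = 0.0435). Neither its call nor its sign held across the 3 versions. Fundc1, a mitophagy receptor of the outer membrane that works in hypoxia, lies on the minus strand of chromosome X (17386206 to 17438600). It had 27.7, 30.2 and 30.6 CPM in the K68R libraries, against 36.9, 37.4 and 38.2 CPM in the WT libraries. Every K68R library was below every WT library, and Fundc1 fell 1.27-fold (log2 fold change −0.34, SE 0.0461, edgeR adjusted p = 7.98e-10). With the offsets it was at 0.020, 0.032 and −0.011 and was not called (smallest edgeR adjusted p = 0.531).

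**Figure D4:**
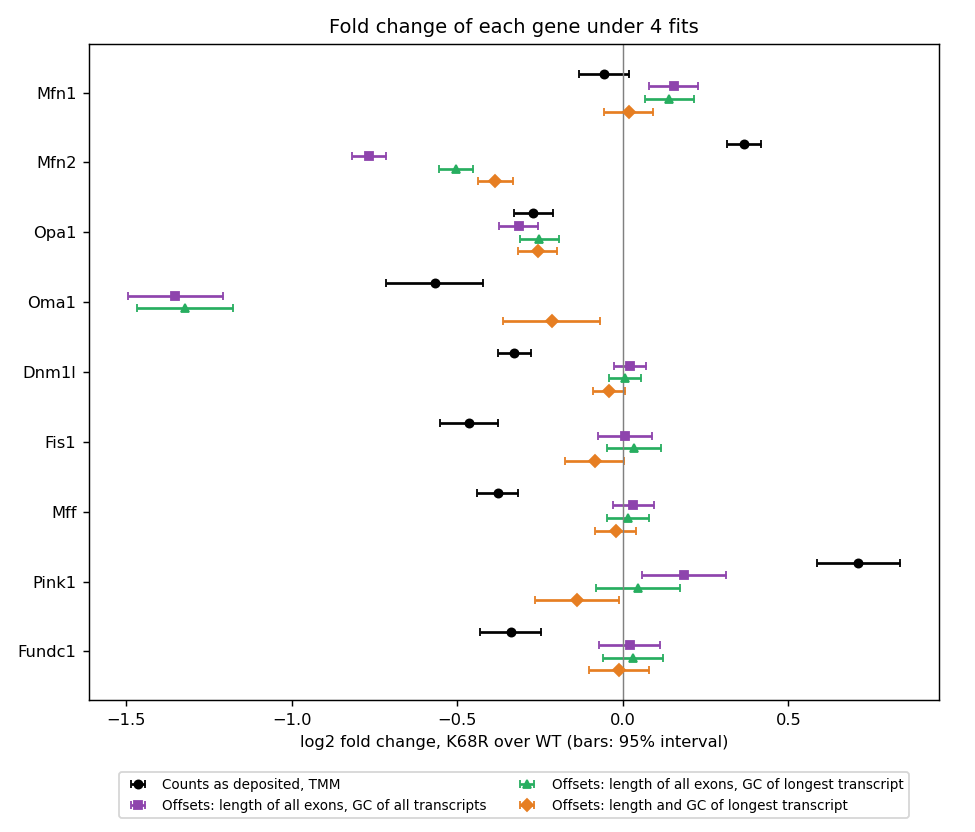
Log2 fold change, K68R over WT (horizontal axis), of each of the 9 genes under 4 fits: counts with TMM alone (black) and 3 versions of offsets for length and GC content (colours). Whiskers are 95% intervals. Opa1 and Oma1 lie left of 0 in all fits, Mfn2 is on opposite sides with and without offsets, and Dnm1l, Fis1, Mff and Fundc1 lie near 0 with offsets.

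Levels can be ordered between genes only per length, here as RPKM, which is CPM per kilobase of exon. In K68R fibroblasts the order was Fis1 at 71.0 ± 5.49 RPKM, Mff at 34.7 ± 0.420, Dnm1l at 30.4 ± 0.164, Mfn2 at 28.7 ± 0.778, Mfn1 at 12.3 ± 0.313, Opa1 at 11.7 ± 0.361, Pink1 at 9.66 ± 0.434, Fundc1 at 8.46 ± 0.448 and Oma1 at 0.806 ± 0.0638 RPKM. Mfn1 and Opa1 were the only neighbours in this order whose libraries overlapped. In WT fibroblasts the order was Fis1 at 97.7 ± 3.29 RPKM, Mff at 45.04 ± 1.21, Dnm1l at 38.2 ± 0.288, Mfn2 at 22.2 ± 0.621, Opa1 at 14.2 ± 0.201, Mfn1 at 12.9 ± 0.729, Fundc1 at 10.7 ± 0.188, Pink1 at 5.91 ± 0.475 and Oma1 at 1.198 ± 0.0171 RPKM. No neighbours overlapped there. The order depends on the length used. Per kilobase of the longest coding transcript, the K68R order was Fis1, Mfn2, Mff, Dnm1l, Fundc1, Opa1, Mfn1, Pink1 and Oma1, in which Fundc1 and Opa1 overlapped. The WT order was then Fis1, Mff, Dnm1l, Mfn2, Fundc1, Opa1, Mfn1, Oma1 and Pink1, with no overlap. Fis1 led on both scales and in both genotypes. In proportion to its level per kilobase of exon, Oma1 moved most, to 5.48 CPM per kilobase in K68R and 8.14 CPM per kilobase in WT fibroblasts.

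The promoters of the 9 genes were read for motifs of factors that act on nuclear genes for mitochondrial proteins. All 9 matched the RefSeq promoter table (build GRCm38.p6), from which the 250 bases before each listed start were used, 14 windows in all. Both strands were searched for the consensus of NRF1, ETS factors (CCGGAAG), the E-box (CACGTG), ERR (AAGGTCA), SP1 (GGGCGG) and the CCAAT box (CCAAT). The NRF1 consensus was found in Opa1 alone of the 9, in 1 of the 14 windows, beside 0.998% of all 32851 windows. The ETS motif was found in Mfn1 and Fis1, in 2 of the 14 windows, beside 6.91% of windows, and the E-box and the ERR motif in none of the 9, beside 6.02% and 4.08%. SP1 motifs were found in 8 genes, all but Fundc1, and in 11 of the 14 windows, beside 32.7% of all windows. The 2 Mff windows overlap and hold the same SP1 match. The 14 windows held 46.0% to 70.8% GC and 5 to 26 CG dinucleotides, beside medians of 52.4% and 6 over all windows. The part of this base composition in the SP1 count was not tested. CCAAT boxes were found in Mfn1, Opa1, Dnm1l, Fis1 and Mff, in 5 of the 14 windows, beside 33.9%. A match describes letters in this window and is not a binding site. The windows of Mfn1, Opa1 and Fis1 are shown for their NRF1 or ETS match and that of Mfn2 as the other mitofusin, with these matches in capitals, from 5′ to 3′ on the strand of the gene. They are Mfn1 (chr3:32529232-32529481, plus strand), Mfn2 (first of 3 listed starts, chr4:147904910-147905159, minus strand), Opa1 (chr16:29579084-29579333, plus strand) and Fis1 (first of 2 listed starts, chr5:136953025-136953274, plus strand).
Mfn1: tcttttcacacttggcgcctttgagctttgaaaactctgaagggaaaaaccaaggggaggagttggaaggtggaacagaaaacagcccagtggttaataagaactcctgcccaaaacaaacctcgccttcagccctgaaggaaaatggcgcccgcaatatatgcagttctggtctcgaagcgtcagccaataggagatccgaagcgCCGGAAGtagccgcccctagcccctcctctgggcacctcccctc
Mfn2: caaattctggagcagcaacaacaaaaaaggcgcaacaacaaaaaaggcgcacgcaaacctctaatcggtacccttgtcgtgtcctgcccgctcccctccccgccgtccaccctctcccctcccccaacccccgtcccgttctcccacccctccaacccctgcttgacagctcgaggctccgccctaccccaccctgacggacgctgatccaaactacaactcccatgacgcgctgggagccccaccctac
Opa1: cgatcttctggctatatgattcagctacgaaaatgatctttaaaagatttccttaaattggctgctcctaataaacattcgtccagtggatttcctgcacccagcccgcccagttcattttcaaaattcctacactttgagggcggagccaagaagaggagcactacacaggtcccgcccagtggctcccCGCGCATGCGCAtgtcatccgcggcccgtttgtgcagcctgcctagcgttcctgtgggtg
Fis1: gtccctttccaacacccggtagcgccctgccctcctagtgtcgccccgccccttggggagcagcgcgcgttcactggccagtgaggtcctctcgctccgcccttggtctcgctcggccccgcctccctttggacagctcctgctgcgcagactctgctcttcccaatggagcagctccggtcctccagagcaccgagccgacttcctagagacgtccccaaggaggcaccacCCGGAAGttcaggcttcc

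Genes around the 9 in the same processes were described from 7 lists, written with earlier results of these data known. Of their 106 tested genes 44 were higher and 54 lower, beside 40.8% and 40.5% of all tested genes. The median log2 fold change was −0.10, beside −0.01 for all tested genes. With version 1 of the offsets 34 of 105 were called higher and 50 were called lower, beside 33.7% and 42.4%. Their median was −0.07, as for all genes.

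In the list of MICOS, the complex that holds crista junctions, and its partners, 10 of 11 genes were lower and none was higher (median −0.54), beside 40.5% lower of all tested genes. With offset versions 1, 2 and 3, 9, 9 and 10 of the 11 were lower, and 8 were called lower in all 4 fits, beside 28.1% of all genes with a GC value. Chchd3, a MICOS subunit, had 76.0 ± 2.01 CPM in K68R and 128 ± 2.78 CPM in WT fibroblasts (log2 fold change −0.75). Samm50, which links MICOS to the outer membrane, had 118 ± 1.28 CPM in K68R and 188 ± 3.34 CPM in WT fibroblasts (−0.67), and Mtx2, its partner, 35.99 ± 0.831 CPM in K68R and 70.7 ± 2.17 CPM in WT fibroblasts (−0.98). Their edgeR adjusted p values were 1.27e-34 or less, and all 3 were lower in every version of the offsets. In the list for inner membrane fusion and OPA1 processing, 7 of 10 tested genes were lower and 3 higher (median −0.36). Of all tested genes 40.5% were lower and 40.8% higher. With version 1 of the offsets 3 of 9 were lower and 4 higher (median −0.025), so the excess of lower genes was absent there, and with version 2, 5 were lower and 2 higher, and with version 3, 6 were lower and 2 higher. Stoml2, a scaffold that stabilises long OPA1 forms under stress, had 69.3 ± 1.27 CPM in K68R and 144 ± 2.10 CPM in WT fibroblasts (−1.05, edgeR adjusted p = 5.72e-44). The prohibitin Phb2 fell as well, with 208 ± 4.92 CPM in K68R and 324 ± 4.72 CPM in WT fibroblasts (−0.64, edgeR adjusted p = 2.82e-38), whereas Opa3 rose, with 40.2 ± 0.991 CPM in K68R and 19.0 ± 1.28 CPM in WT fibroblasts (1.08, edgeR adjusted p = 2.32e-30). These 3 genes kept their direction in every version of the offsets.

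The 16 genes around fission split, with 8 higher and 7 lower (median 0.06), beside 40.8% and 40.5% of all tested genes. With the offsets 4 were higher and 9 lower in version 1 (median −0.21), 5 higher and 9 lower in version 2 (−0.096), and 6 higher and 7 lower in version 3 (−0.040). Of all genes with a GC value 33.7%, 33.6% and 32.9% were higher in these versions, and 42.4%, 42.3% and 42.7% lower. Those with the smallest p values were genes of the actin and membrane machinery, which also serve other processes. Inf2, a formin that builds actin at contacts with the endoplasmic reticulum, had 210.1 ± 2.45 CPM in K68R and 9.17 ± 0.755 CPM in WT fibroblasts (log2 fold change 4.51). Dnm2, the dynamin of endocytosis, had 161 ± 2.29 CPM in K68R and 27.02 ± 0.975 CPM in WT fibroblasts (2.58), and Spire1, an actin nucleator, 84.8 ± 2.83 CPM in K68R and 38.7 ± 1.52 CPM in WT fibroblasts (1.13), with edgeR adjusted p values of 1.54e-39 or less. All 3 stayed higher with the offsets but by less, Inf2 by 1.59 and Dnm2 by 0.66 in version 1.

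In the list for the PINK1 pathway, 11 of 14 tested genes were lower and 3 higher (median −0.44), beside 40.5% lower of all tested genes. With offset versions 1, 2 and 3, 11, 10 and 13 were lower, beside 42.4%, 42.3% and 42.7%. In all 4 fits 8 were lower, beside 28.1%. Vdac3, a channel of the outer membrane, had 99.95 ± 1.41 CPM in K68R and 171 ± 4.10 CPM in WT fibroblasts (log2 fold change −0.77, edgeR adjusted p = 2.87e-38). Tomm22, a receptor of the import pore of the outer membrane, had 95.3 ± 1.77 CPM in K68R and 149 ± 2.71 CPM in WT fibroblasts (−0.65, edgeR adjusted p = 5.13e-33). Vdac3 was among those 8, and Tomm22 was not: its offset values were −0.11, −0.038 and −0.22, and that of version 2 was not called (edgeR adjusted p = 0.205). Vps13d, a lipid transfer protein, rose, with 63.0 ± 3.25 CPM in K68R and 26.7 ± 0.494 CPM in WT fibroblasts (1.24, edgeR adjusted p = 1.96e-38), but was at 0.33, 0.20 and −0.84 with the offsets. Of the 14 mitophagy receptors and adaptors, 7 were higher and 5 lower (median 0.13), beside 40.8% and 40.5% of all tested genes. With offset versions 1, 2 and 3 there were 6 higher and 6 lower, 7 higher and 5 lower, and 6 higher and 2 lower. Of all genes with a GC value 33.7%, 33.6% and 32.9% were higher in these versions. Fkbp8, a receptor that binds LC3, had 147 ± 2.91 CPM in K68R and 74.2 ± 2.74 CPM in WT fibroblasts (0.99, edgeR adjusted p = 3.46e-42), but was at −0.35, −0.99 and −0.052 with the offsets. Calcoco1 rose 1.49 on the log2 scale and Ambra1 1.57 (edgeR adjusted p of 1.61e-38 or less). With the offsets Calcoco1 was at 0.83, 0.28 and 0.39, and Ambra1 at 0.61, 0.47 and −0.026.

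**Figure D5:**
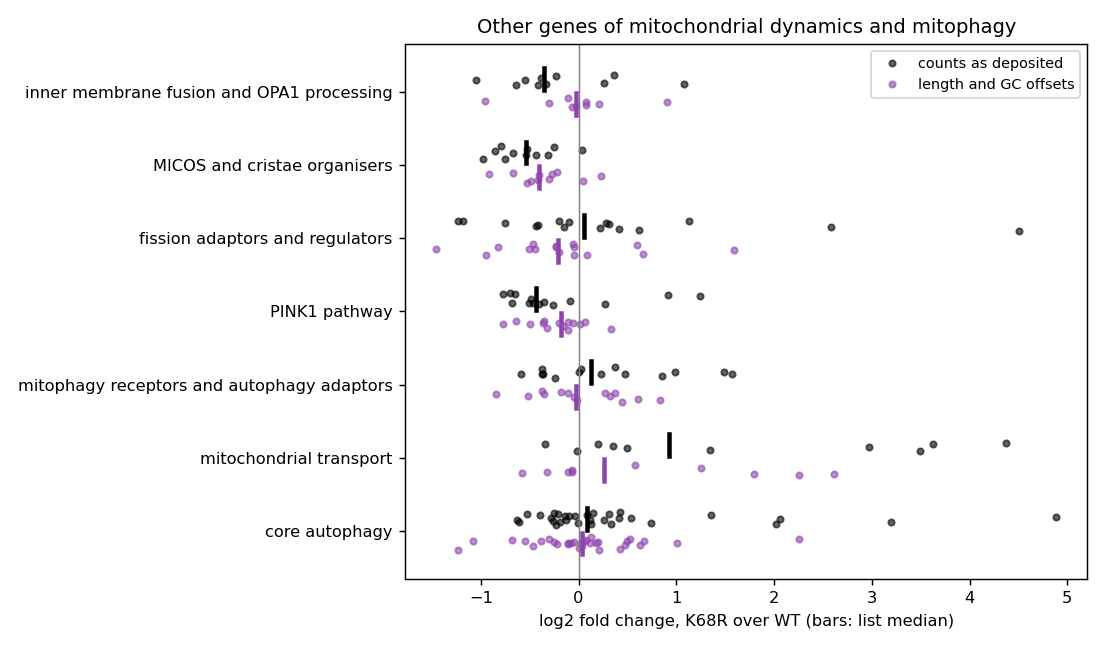
Log2 fold change, K68R over WT (horizontal axis), of the tested genes of 7 lists of mitochondrial dynamics, mitophagy, transport and autophagy (rows), as measured (black) and with version 1 of the offsets (purple). Points are genes and upright bars are list medians. The MICOS list lies mostly left of 0 in both, and the transport list has the median farthest right in both.

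The pattern of each gene over the 6 libraries was compared with that of all tested genes by the Euclidean distance between log2 CPM values centred on the gene's own mean. Nearest to Pink1, the gene of the 9 with the largest change, were Coch at a distance of 0.0682, Clec16a at 0.0997 and Etv6 at 0.101. Nearest to Mfn1, the one with the smallest, were Srpk1 at 0.0584, Rasa2 at 0.0608 and Pgm1 at 0.0612. With 6 libraries in 2 genotypes, such a distance mostly reads the size and direction of the genotype difference.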

How the data were processed

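RNA was measured in 6 libraries, grouped by genotype from their titles. Per the labels' protocols, RNA had an integrity number above 4 and went into stranded poly(A) libraries. The tools named in the submitters' processing notes are HISAT2 2.2.1, featureCounts 2.0.6, SAMtools and bcl2fastq, and the build is mm39. Deposited by the authors were raw counts of pairs over the exons of each RefSeq gene, made without a strand option per the file headers, with exonic length as another deposited column. Reads of near-identical copies were not counted.

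Counts were tested in R 4.3.3 with edgeR 4.0.16 (filterByExpr, TMM, robust quasi-likelihood F test, genotype as the only term), with Benjamini-Hochberg adjustment over all genes tested and a threshold of 0.05. The 1.5-fold test was edgeR's glmTreat. Offsets for length and GC content were smooth surfaces per library from mgcv 1.9.3. GC content came from GENCODE M21 transcripts joined by symbol, and 93.8% of tested genes had a value. Ratios were tested by exact permutation. DESeq2 1.42.0, limma 3.58.1 and the alternatives of the closing section were also run. The main edgeR fit, version 1 of the offsets, DESeq2 and limma-voom were checked on simulated data, and the other tests were not. CPM used TMM library sizes, so that 3 counts are 0.0728 to 0.116 CPM, and this floor covers counting error only. The chi-square per gene between libraries of 1 genotype was 1.86 to 2.33, above sampling noise, so all 6 counted as separate libraries. Between genotypes it was 333 to 427. The biological coefficient of variation estimated by edgeR was 2.19%. These values do not tell libraries of separate embryos from libraries of 1 culture.

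The 9 genes and all gene lists were chosen with earlier results of these data known. 1 listed item is not reported here. Named beside them were Sod2, in each list up to 3 called genes with the smallest adjusted p, and the 3 genes nearest in pattern to the genes with the largest and the smallest change. Any other gene is named as a marker, as an overlapping gene or because its value was singled out after it was seen.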

Additional observations from a re-analysis of the deposited data

How the results depend on the processing

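For the 9 genes, the calls and directions as measured were kept under DESeq2, DESeq2 size factors, limma-voom, a filter of 1 CPM in 3 libraries and an adjusted p under 0.01. Upper quartile scaling (Mfn1 at −0.17) and no filter on low counts (−0.10) called Mfn1 lower and changed no other call. Upper quartile scaling moved the median of all genes by −0.11. Without a filter the median was higher by 0.16, but over a set that also held genes with low counts. That value is therefore not a shift of the same genes, and Mfn2 went from 0.37 to 0.33. With each library left out in turn 2 of the 9 were higher and 6 to 7 lower, and 13403 to 13637 genes were called in all. Mfn1 ranged from −0.11 to −0.030, with a call only without WT replicate 1. Tested against 1.5-fold, 4365 genes were higher and 2490 lower, 6855 in all. Of the 9, 1 was higher and 0 lower, 1 in all. Of the wider lists, 21 were higher and 14 lower, 35 in all. The fold changes of Mfn2 (0.37), Opa1 (−0.27), Oma1 (−0.57), Dnm1l (−0.33), Fis1 (−0.47), Mff (−0.38) and Fundc1 (−0.34) lost their call there because the test asks for a larger change.

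With version 1 of the offsets, 2 of the 9 were higher and 3 lower, 5 in all. The log2 fold change was 0.15 for Mfn1, −0.77 for Mfn2, 0.021 for Dnm1l, 0.0061 for Fis1, 0.032 for Mff and 0.020 for Fundc1. The ratio of Mfn2 to Mfn1 differed by −0.92 and that of Opa1 to Oma1 by 1.04. In version 2, 1 was higher and 3 lower, 4 in all, with Mfn1 at 0.14, Mfn2 at −0.50, Dnm1l at 0.0052, Fis1 at 0.032, Mff at 0.015, Pink1 at 0.044 and Fundc1 at 0.032. In version 3, 0 were higher and 4 lower, 4 in all, with Mfn1 at 0.017, Mfn2 at −0.39, Dnm1l at −0.042, Fis1 at −0.085, Mff at −0.022, Pink1 at −0.14 and Fundc1 at −0.011. Offsets for length alone left 1 of the 9 higher, put Mfn1 at −0.49, Mfn2 at −0.22, Opa1 at −1.01, Oma1 at −1.53, Dnm1l at −0.74, Fis1 at −0.12, Mff at −0.36, Pink1 at 0.67 and Fundc1 at −0.60, and moved the median of all genes by −0.20, with 5306 genes higher and 8153 lower. The cause of these changes was not tested.

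The labels number the libraries 1 to 3 in both genotypes. Deviations of same-numbered libraries from their genotype means correlated at −0.00947, 0.0135 and 0.0130, so the numbers were not taken to pair them, and not every library correlated best with its own number. A fit with the replicate number as a block called 13567 genes and changed no call of the 9. The block together with version 1 of the offsets called 3 lower, 5 in all, with Mfn1 at 0.15, Mfn2 at −0.77, Dnm1l at 0.021, Fis1 at 0.0084, Mff at 0.031 and Fundc1 at 0.016. Pld6, in the list for inner membrane fusion, had too few counts to test.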

Other observations

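Of the 10 genes in the mitochondrial transport list, 8 were higher and 1 was lower, beside 40.8% and 40.5% of all tested genes. The median log2 fold change was 0.92, beside −0.01 for all tested genes. With version 1 of the offsets 5 were higher and 2 lower, beside 33.7% and 42.4% (median 0.26, beside −0.07). Beside genes that move mitochondria along microtubules, the list holds Miga1, Miga2 and Snph, the gene of an anchor. Miga1, chosen after its values were seen, was not called as measured (log2 fold change −0.01, edgeR adjusted p = 0.852). With the offsets Miga1 was at −0.58, −0.35 and 0.13. As measured the median of the transport list was the farthest from 0 of the 7 lists, and with version 1 of the offsets that of the MICOS list was (−0.40). Trak1, the adaptor that ties mitochondria to kinesin and dynein, had 45.9 ± 1.68 CPM in K68R and 3.69 ± 0.312 CPM in WT fibroblasts (log2 fold change 3.63, edgeR adjusted p = 1.22e-53). Kif5c, a kinesin heavy chain, had 28.6 ± 0.555 CPM in K68R and 3.65 ± 0.597 CPM in WT fibroblasts (2.97, edgeR adjusted p = 2.52e-44). With the offsets Trak1 was at 1.25, 1.21 and 1.30, and Kif5c at 2.61, 2.82 and 2.51. Miga2 rose 1.35 as measured (edgeR adjusted p = 5.96e-32) and was at −0.10, −0.30 and −0.35 with the offsets. Chosen after their values were seen, Kif5a, Kif5b and Snph, which encodes the anchor syntaphilin, were also called higher in all 4 fits, though Snph rested on 38 to 48 counts in K68R and 1 to 4 counts in WT libraries.

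In the core autophagy list 15 of 31 genes were higher and 13 lower (median 0.09), beside 40.8% and 40.5% of all tested genes. With version 1 of the offsets 12 were higher and 10 lower (median 0.04), beside 33.7% and 42.4%. The balance turned in the other versions. Version 2 had 10 higher and 12 lower (median −0.034), beside 33.6% and 42.3%, and version 3 had 9 higher and 12 lower (median −0.039), beside 32.9% and 42.7%. Ulk1, the kinase that starts autophagy, had 42.1 ± 1.496 CPM in K68R and 4.58 ± 0.170 CPM in WT fibroblasts (log2 fold change 3.196, edgeR adjusted p = 3.75e-51). Atg9a, a lipid scramblase of the growing membrane, had 54.7 ± 0.960 CPM in K68R and 13.45 ± 0.201 CPM in WT fibroblasts (2.02, edgeR adjusted p = 1.89e-47). Atg2a, its lipid transfer partner, had 47.3 ± 1.31 CPM in K68R and 1.59 ± 0.0575 CPM in WT fibroblasts (4.89, edgeR adjusted p = 8.45e-58). All 3 remained higher with the offsets, by 1.00, 0.50 and 2.26 in version 1. Tfeb, a transcription factor for autophagy and lysosome genes, was chosen after its values were seen. It rose 2.06 as measured (edgeR adjusted p = 1.08e-18) and was at −1.08, −1.06 and 0.35 with the offsets, with 145 to 148 counts in K68R and 37 to 51 counts in WT libraries.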
